A study of Rattus norvegicus with 6 samples.

Results

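The genes described here encode 9 efflux pumps of the ATP-binding cassette (ABC) superfamily in rat kidney: the multidrug resistance proteins Abcc1 to Abcc6, the P-glycoproteins Abcb1a and Abcb1b, and the breast cancer resistance protein Abcg2. They were chosen by name, with earlier results of these data known. Their probes were taken as every non-control probe whose identifier on the array is a RefSeq transcript of one of these genes. This gave 21 probes of 61537 on the array, and 9 genes of the 15645 that could be named. RNA of the renal cortex was measured on Agilent 1-colour arrays, with 1 array per animal. The animals were male Sprague-Dawley (Crl:CD(SD)) rats, bought at 5 weeks of age and kept on a basal diet with tap water. The 3 rats of the control group received corn oil, the vehicle, and the other 3 rats received chlorothalonil at 500 mg/kg/day, each for 4 weeks. Chlorothalonil is a chlorinated nitrile fungicide that reacts with thiols. The source name of chlorothalonil replicate 3 gives ethylenediamine dihydrochloride in place of chlorothalonil, while its title, treatment and dose labels give chlorothalonil, so counts are also given without it.

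ABC efflux pumps use ATP to move compounds out of cells. In the proximal tubule, organic anions are taken up from blood on the basolateral side and leave into urine through pumps in the apical brush border, where Abcc2, Abcc4, Abcg2 and P-glycoprotein are known to lie. Abcc1 and Abcc3 are known as basolateral pumps that return conjugates towards the blood. Many substrates of the Abcc pumps are glutathione, glucuronide or sulfate conjugates made by transferases in the same cell. A transcript level says nothing of the amount of pump protein or of its place in the membrane, and neither was measured.

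Between 62.1% and 67.8% of probes were well above background per array, the lowest share being that of corn oil replicate 3. Per the file headers the corn oil arrays shared 1 slide and 1 scan day and the chlorothalonil arrays another slide and day, so slide and treatment cannot be told apart in any value below. The 25 proximal tubule markers were all measured, and their summed signal was 3533 to 3959 with corn oil and 4082 to 4184 with chlorothalonil, in units of the array's 75th percentile. Limma called 0 of them, with an unadjusted p under 0.05 for 8 against 18.5% of all named genes tested, and their median log2 fold change was 0.052. For the 4 red blood cell transcripts the sums were 475 to 497 and 556 to 602, where limma called 0 and gave all 4 an unadjusted p under 0.05. For the other lists of markers, of the loop of Henle and distal tubule, collecting duct, podocytes, endothelium, leukocytes and fibroblasts, the ranges of the groups overlapped. In those lists limma called 0 of 50 genes, with an unadjusted p under 0.05 for 5 of them. Pvalb, Cd163, Cd3e, Cd79b and Lum, which mark cells of those lists, were not well above background on all arrays of either group. Over the 8 lists, the marker with the smallest p lay between −0.56 (Calb1) and 0.73 (Slc4a1) on the log2 scale and did not pass. Under some alternatives 3 of these did pass in limma, namely Calb1 at −0.74 with normexp (adjusted p of 0.0282), the proximal tubule carrier Slc13a3 under 3 settings (adjusted p from 0.00947 to 0.0491) and the red cell carrier Slc25a37 under 2 (0.0453 and 0.0479). The part of cell makeup in the changes below was not tested. In such tissue RNA, fewer cells of a type and less RNA per cell cannot be told apart.

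Transcript levels of the conjugate exporters Abcc1, Abcc2, Abcc3 and Abcc4 were higher with chlorothalonil than with corn oil. Abcc2, Abcc3 and Abcc4 rose between 4.36-fold and 4.97-fold, and Abcc1 rose 1.54-fold. Abcc5, Abcc6, Abcb1b and Abcg2 did not pass the threshold, and Abcb1a was too dim to be tested. Of the 8 genes tested, 4 were therefore called higher and 0 lower at a Benjamini-Hochberg adjusted p of 0.05 in limma, where 1.44% of the 11926 named genes tested were called higher and 0.696% lower. Over all 31098 features the called share was 3.15%. The groups did not overlap for 5 of the 8 genes, 4 higher and 1 lower, against 27.8% of named genes. The median log2 fold change of the 8 genes was 0.36, and that of all named genes 0.024. Abcc2, Abcc3 and Abcc4 ranked at positions 29, 32 and 35 of the 11926 named genes by size of rise, and Abcc1 at 364. The genes were chosen with earlier results of these data known, so these shares and ranks describe the list and are no test of it. The number of members called depended on single arrays. It was 2 without corn oil replicate 3 or without chlorothalonil replicate 2, where Abcc3 and Abcc4 were called. It was 3 without chlorothalonil replicate 1 or 3, and 4 without corn oil replicate 1 or 2. Over all features 400 were called higher and 580 lower, a balance that turned to 456 higher and 403 lower with scaling to the array median. The 4 calls among the transporters were also made under that scaling.

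**Figure D1:**
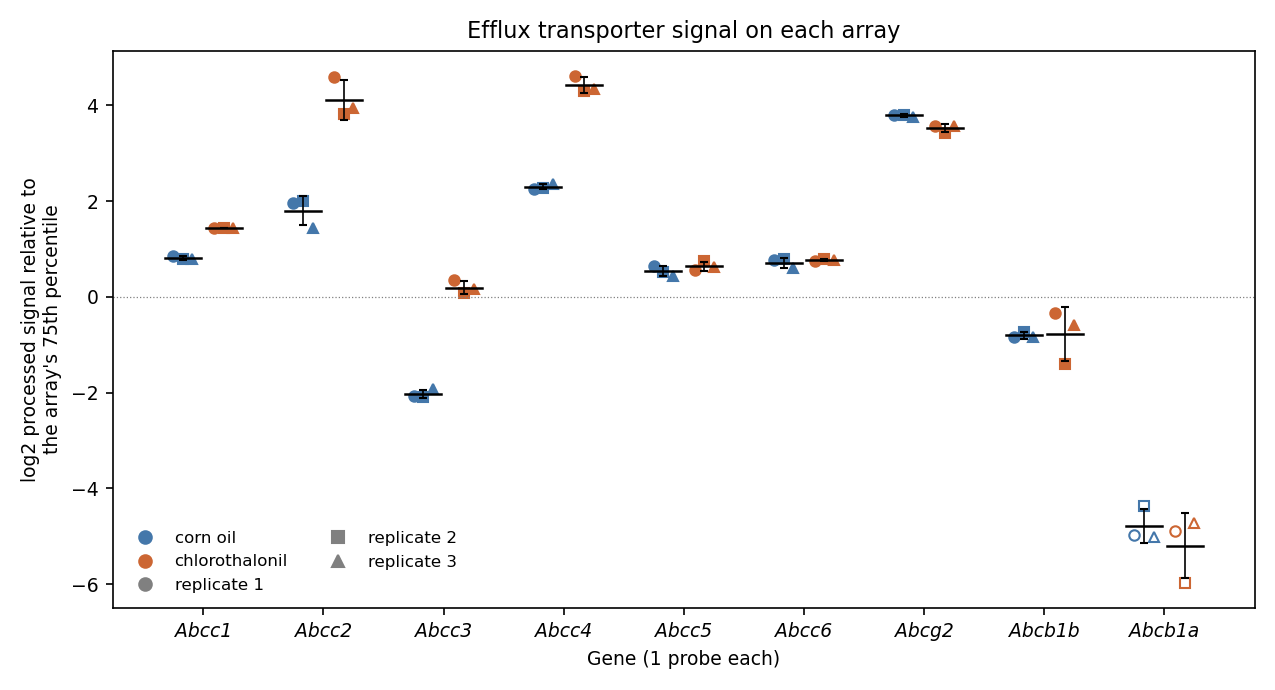
Log2 processed signal relative to the array's 75th percentile (vertical axis) of 1 probe for each of the 9 efflux transporter genes, on 3 corn oil and 3 chlorothalonil arrays. Points are arrays, thick lines group means and bars SD, open points mark a probe that was not tested, and the groups lie apart for Abcc1 to Abcc4 (higher with chlorothalonil) and for Abcg2 (lower).

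Abcc2, known as MRP2, exports glutathione and glucuronide conjugates across the apical membrane into urine. Its 1 probe had a signal, relative to the array's 75th percentile set to 1, of 3.90, 4.02 and 2.73 with corn oil and 24.2, 14.1 and 15.4 with chlorothalonil in replicates 1 to 3. Every treated array lay far above every control array, corn oil replicate 3 was the lowest control, and chlorothalonil replicate 1 was the highest treated array. On the log2 scale the means were 1.80 ± 0.31 (SD, n = 3) and 4.12 ± 0.42, and the difference was 2.31 ± 0.25 (SE), or 4.97-fold, with a limma adjusted p of 0.0146. The 95% interval of the fold ran from 3.22 to 7.68, the widest among the 4 genes that rose. With a single probe there was no second measurement of Abcc2 on these arrays. The adjusted p was 0.0536 without corn oil replicate 3, 0.0561 without chlorothalonil replicate 2 and 0.0638 without chlorothalonil replicate 3, where the fold change stayed between 2.14 and 2.47 on the log2 scale. With no filter on dim probes the limma adjusted p of Abcc2 was 0.0538, and with a block for replicate number 0.0761.

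Abcc4, or MRP4, is an apical pump of the proximal tubule that carries organic anions, urate and cyclic nucleotides. Its brightest probe had a signal of 4.81, 4.82 and 5.13 with corn oil and 24.5, 19.8 and 20.3 with chlorothalonil, again relative to the 75th percentile. The control arrays lay close together and all treated arrays far above them, with chlorothalonil replicate 1 highest. On the log2 scale Abcc4 rose by 2.13 ± 0.10 (SE), or 4.36-fold with a 95% interval from 3.69 to 5.17, with a limma adjusted p of 0.00307. The other 3 probes of Abcc4 gave 2.12, 2.28 and 2.33 on the log2 scale, and each passed in the fit over probes. The probe at 2.28 was the most even within the chlorothalonil group, with signals of 0.335, 0.346 and 0.317 with corn oil and 1.61, 1.61 and 1.63 with chlorothalonil.

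Abcc3, or MRP3, is a basolateral pump known for carrying glucuronides and bile acids towards the blood. Its brightest probe had a signal of 0.237, 0.235 and 0.262 with corn oil and 1.28, 1.05 and 1.12 with chlorothalonil. The groups lay well apart, and chlorothalonil replicate 1 was the highest array here too. Abcc3 rose by 2.23 ± 0.10 (SE) on the log2 scale, or 4.69-fold with a 95% interval from 3.97 to 5.52, with a limma adjusted p of 0.00243. The other 2 probes of Abcc3 gave 2.10 and 2.21 on the log2 scale.

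Abcc1, or MRP1, is a basolateral exporter of glutathione conjugates and leukotrienes found in many cell types. Its brightest probe had a signal of 1.82, 1.74 and 1.73 with corn oil and 2.71, 2.73 and 2.70 with chlorothalonil. The rise was small and the arrays of each group nearly coincided, with an SD on the log2 scale of 0.039 with corn oil and 0.0081 with chlorothalonil. Abcc1 rose by 0.62 ± 0.06 (SE), or 1.54-fold with a 95% interval from 1.40 to 1.70, with a limma adjusted p of 0.0110. A pair of its other probes, of similar brightness, gave 0.53 and 0.59 on the log2 scale and also passed. The remaining probe of Abcc1 was not well above background on any corn oil array and well above it on all 3 chlorothalonil arrays, so it had to differ to be kept. Counting corn oil at no less than the lowest signal well above background of any probe on each array, it was 1.34-fold higher with chlorothalonil. That floor is not the detection limit of this probe. It did not pass in limma (adjusted p of 0.0675), and because it had to differ to be kept, its value is not counted as support for the rise. The call of the brightest probe was lost at an adjusted p of 0.05003 without corn oil replicate 3, of 0.0584 without chlorothalonil replicate 1 and of 0.0584 without chlorothalonil replicate 2, while its value stayed between 0.61 and 0.65 in all 6 fits that left out 1 array. The call was also lost with no filter on dim probes (limma adjusted p of 0.0538) and with a block for replicate number (0.0855).

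**Figure D2:**
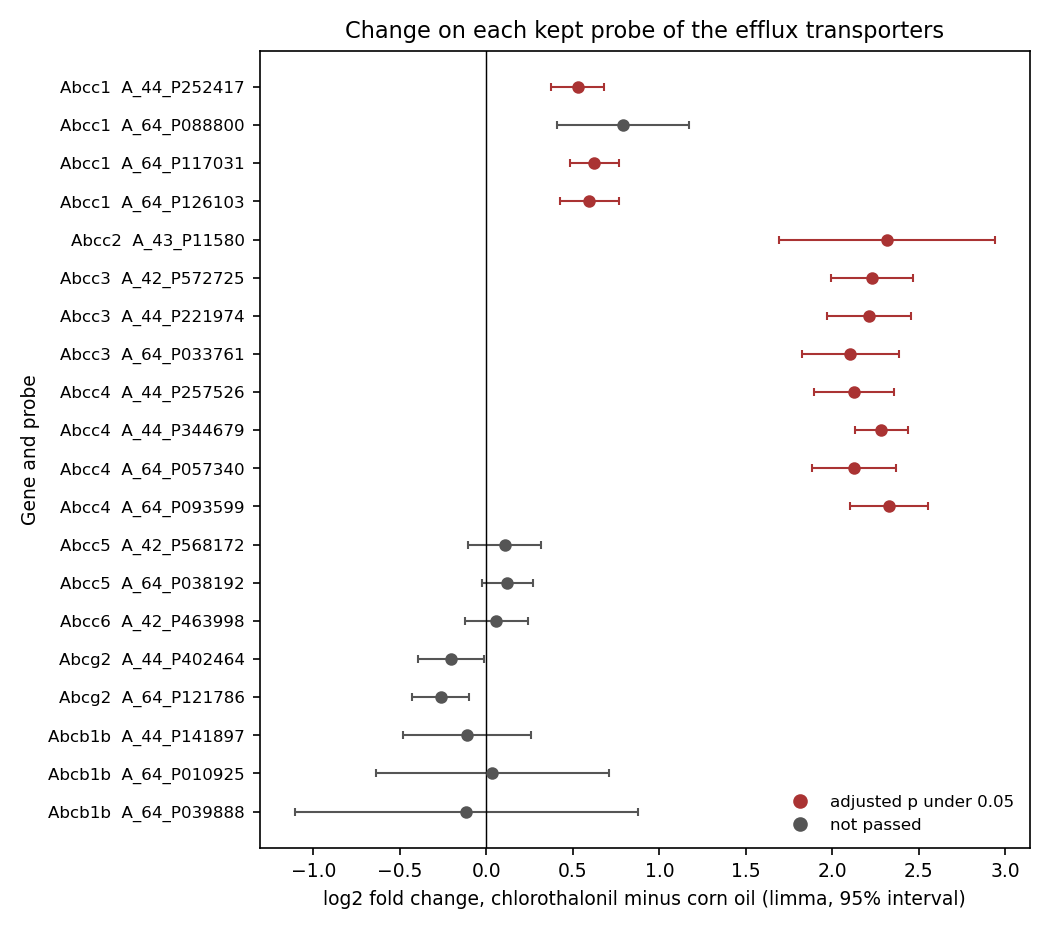
Log2 fold change of chlorothalonil minus corn oil (horizontal axis) on each of the 20 kept probes of 8 efflux transporter genes, with 95% intervals from limma, and red for an adjusted p under 0.05 over all kept probes. All 8 probes of Abcc2, Abcc3 and Abcc4 lie between 2.10 and 2.33. The 3 brighter probes of Abcc1 lie between 0.53 and 0.62, and the probes of the other genes between −0.26 (Abcg2) and 0.12 (Abcc5). The remaining probe of Abcc1, plotted at 0.79, was not well above background with corn oil, so its position has no measured control level behind it.

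In the fit over all 39862 kept probes, 11 of the 20 kept probes of these genes passed, all of them higher, where 1.24% of all kept probes passed higher and 1.43% lower. Probes of 1 gene measure the same RNA and are not replicates of the treatment. Probes of 1 gene lay near each other in size of change, from 2.10 to 2.23 on the log2 scale for Abcc3 and from 2.12 to 2.33 for Abcc4. The number was 7 without corn oil replicate 3, chlorothalonil replicate 2 or chlorothalonil replicate 3, and 8 without corn oil replicate 2 or chlorothalonil replicate 1.

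The sizes of the 4 rises were set side by side within arrays, over 6 pairs of genes. The log2 fold change of Abcc1 minus that of Abcc2 was −1.69 ± 0.30 (SE). Against Abcc3 the difference was −1.60 ± 0.11, and against Abcc4 it was −1.50 ± 0.11. In each of these pairs the treated arrays did not overlap the controls, with a two-sided exact permutation p of 0.10, the smallest that 3 against 3 arrays allow, and 0.15 after Benjamini-Hochberg adjustment over the 6 pairs. The fold changes of Abcc2 and Abcc3 differed by 0.09 ± 0.28 (exact permutation p of 0.80, adjusted 0.80) and those of Abcc2 and Abcc4 by 0.19 ± 0.26 (exact permutation p of 0.60, adjusted 0.72). On their brightest probes Abcc3 and Abcc4 differed by 0.10 ± 0.03, with no overlap between groups and the same exact permutation p of 0.10. With the mean of a gene's probes Abcc3 rose by 2.18 and Abcc4 by 2.22, so their order depended on the probes used. With 3 against 3 arrays no pair could pass the threshold in this exact test, whatever the size of its difference. The p-values therefore cannot decide whether the sizes of the rises differ.

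By the root mean square difference in log2 signal over the 6 arrays, each gene taken relative to its corn oil mean, Abcc3 and Abcc4 were each other's nearest of 11317 named genes measured on every array, at 0.078. Next to Abcc3 came Rgs11, a regulator of G protein signalling, at 0.115 and Ephx1, the microsomal epoxide hydrolase, at 0.226. Next to Abcc4 came Aldh1l1, a folate enzyme, at 0.172 and Rgs11 at 0.174. Nearest to Abcc2 was Ephx1, at 0.083, followed by Ppm1j, a protein phosphatase, at 0.242 and Rgs11 at 0.287. Nearest to Abcc1 were the retinal dehydrogenase Aldh1a1, at 0.034, the ATP synthase inhibitor Atp5if1, at 0.042, and the cytochrome Cyb5a, at 0.052. These distances describe 6 arrays and carry no test.

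The 250 bases before the annotated start of 3 of the genes that rose are shown because their transcripts moved in the same direction, and because regulators of such genes are known to act through short motifs. The sequences are from RefSeq on build GRCr8, 5′ to 3′ on the strand of the gene, and the table used held promoters for 7 of the 9 genes. The array files name an older build, and no coordinate of theirs is used. The promoter of Abcc1 is chr10:1162368-1162617 on the minus strand, that of Abcc2 is chr1:252613625-252613874 on the plus strand, and that of Abcc4 is chr15:102181365-102181614 on the minus strand. Capitals mark GCGTG, the core of the xenobiotic response element bound by the aryl hydrocarbon receptor, and GGGCGG, the GC box bound by Sp1, on either strand.
Abcc1 promoter: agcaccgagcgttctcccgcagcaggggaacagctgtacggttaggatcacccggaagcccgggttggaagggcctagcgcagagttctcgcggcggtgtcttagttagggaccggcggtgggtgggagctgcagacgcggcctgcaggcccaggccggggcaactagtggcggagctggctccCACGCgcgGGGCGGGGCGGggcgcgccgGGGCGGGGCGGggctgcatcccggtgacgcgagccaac
Abcc2 promoter: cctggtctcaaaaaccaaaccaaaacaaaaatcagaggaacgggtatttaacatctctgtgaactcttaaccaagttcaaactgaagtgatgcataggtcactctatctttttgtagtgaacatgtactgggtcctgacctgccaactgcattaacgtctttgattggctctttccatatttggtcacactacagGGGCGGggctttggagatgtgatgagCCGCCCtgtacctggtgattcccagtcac
Abcc4 promoter: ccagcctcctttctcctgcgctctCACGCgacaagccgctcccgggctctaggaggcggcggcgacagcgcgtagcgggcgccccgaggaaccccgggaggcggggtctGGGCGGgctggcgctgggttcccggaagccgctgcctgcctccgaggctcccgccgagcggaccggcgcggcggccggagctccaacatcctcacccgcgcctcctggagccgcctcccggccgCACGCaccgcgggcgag
The Abcc1 window held 4 GC boxes, as pairs that overlap each other by 1 base, and 1 xenobiotic core. The Abcc2 window held 2 GC boxes and 0 xenobiotic cores, and the Abcc4 window held 1 GC box and 2 xenobiotic cores. Matches of different motifs did not overlap. The G and C content was 72.8% for Abcc1, 45.2% for Abcc2 and 77.6% for Abcc4. The core of the antioxidant response element bound by NRF2, TGACNNNGC on either strand, was in 0 of the 7 windows, against 12.3% of the windows of named genes tested and 13.2% of those of genes called higher. That says only that these letters are not in these 250 bases. A GC box was in 7 of the 7 windows and a xenobiotic core in 2, against 54.1% and 41.3% of the windows of named genes tested. Abcc6, Abcb1a, Abcb1b and Abcg2, none of them called, also held at least 1 GC box each.

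Abcc5 and Abcc6 were measured well above background on all 6 arrays and did not pass. Abcc5, or MRP5, exports cyclic nucleotides. Its brightest probe had a signal of 1.56, 1.43 and 1.35 with corn oil and 1.47, 1.67 and 1.53 with chlorothalonil, and the groups overlapped. The log2 fold change was 0.11 ± 0.09 (SE), with a limma adjusted p of 0.555 and a 95% interval of the fold from 0.928 to 1.25. Its other probe gave 0.12 ± 0.06 and did not pass, although its groups did not overlap. Abcc6, needed for the release of ATP that yields the calcification inhibitor pyrophosphate, had a signal of 1.70, 1.73 and 1.51 with corn oil and 1.68, 1.73 and 1.72 with chlorothalonil. Its groups overlapped too, with a log2 fold change of 0.06 ± 0.07 and a 95% interval of the fold from 0.917 to 1.18 (limma adjusted p of 0.722). Without corn oil replicate 3, its lowest array, the value was −0.0024. A rise of the size seen for Abcc1 lay outside both intervals.

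Abcg2, or BCRP, is an apical pump for urate, sulfates and many drugs. Its brighter probe had a signal of 13.9, 14.0 and 13.6 with corn oil and 11.9, 10.8 and 11.9 with chlorothalonil. All treated arrays lay below all control arrays, by a small margin. The log2 fold change was −0.26 ± 0.07 (SE), with a 95% interval from −0.43 to −0.10, and did not pass, with a limma adjusted p of 0.115. The other probe gave −0.20 ± 0.08, also without overlap of the groups. Over the alternatives the adjusted p ran from 0.0490, when limma's variance prior was fitted with a trend and robustly, to 0.284, and the value from −0.29 to −0.21.

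Abcb1a and Abcb1b encode the rodent forms of P-glycoprotein, the pump for hydrophobic and cationic drugs, and in the RefSeq table of GRCr8 they are next to each other, with Abcb4 beside Abcb1b. They are close copies of each other, so RNA of either gene may contribute to the signal of a probe. The brightest probe of Abcb1b had a signal of 0.557, 0.604 and 0.558 with corn oil and 0.797, 0.378 and 0.669 with chlorothalonil. The control arrays nearly coincided, with an SD of 0.067 on the log2 scale, while the treated arrays spread to both sides of them, with an SD of 0.56. The log2 fold change was 0.04 ± 0.27 (SE), with a limma adjusted p of 0.96 and a 95% interval of the fold from 0.641 to 1.64. That interval is not a limit of detection, and changes outside it could also have missed the adjusted threshold. The next probe of Abcb1b had a signal of 0.162, 0.245 and 0.185 with corn oil and 0.270, 0.0968 and 0.221 with chlorothalonil. On both probes chlorothalonil replicate 2 was the lowest array and chlorothalonil replicate 1 the highest. The third, dimmer probe had a signal of 0.0369 and 0.0367 in chlorothalonil replicates 2 and 3, its lowest arrays. Without chlorothalonil replicate 2 the value of the brightest probe was 0.35, and without chlorothalonil replicate 1 it was −0.19, neither past the threshold. The sign also differed between probes, which gave 0.04, −0.12 and −0.11.

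The single probe of Abcb1a was well above background on 2 arrays of each group and was not tested. Its signal was 0.0320, 0.0482 and 0.0308 with corn oil and 0.0339, 0.0160 and 0.0377 with chlorothalonil. The groups overlapped, and chlorothalonil replicate 2 was again the lowest array. Fitted with no filter on dim probes or with 1 of the arrays left out, in the 3 fits that kept it, the log2 fold change of Abcb1a lay between −0.52 and −0.02 and did not pass.

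**Figure D3:**
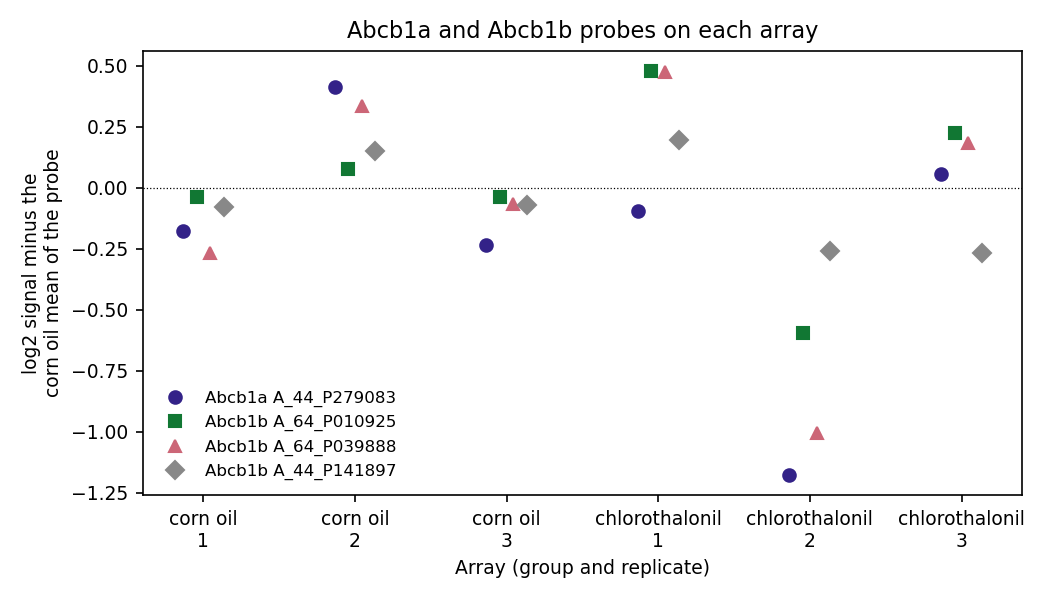
Log2 signal on each array minus the corn oil mean of the same probe (vertical axis), for the 1 probe of Abcb1a and the 3 probes of Abcb1b on the 6 arrays. Chlorothalonil replicate 2 has the lowest value on 3 of the 4 probes, and chlorothalonil replicate 1 the highest on all 3 Abcb1b probes.

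A smaller share of the other ABC transporters was called, and their median change was smaller. Of 33 listed genes of the superfamily on the array, 26 were tested, and 0 rose and 1 fell, with a median log2 fold change of 0.016. Abca15, a dim member of the lipid transporter subfamily, fell by 0.53 ± 0.10 (SE) on the log2 scale at a limma adjusted p of 0.0498. It did not pass when any single array was left out, with quantile normalization, with median scaling, with the deposited table, with no filter, with the mean of a gene's probes, with the trended robust variance prior or with the replicate block. With normexp it was at −0.11 and did not pass either. Of the 26 genes, 5 had an unadjusted limma p under 0.05, a share near the 18.5% of all named genes tested. Abcc8, the sulfonylurea receptor, was at 0.97 ± 0.64, and the chloride channel Cftr at −1.19 ± 0.69, both with wide spreads and neither past the threshold. Abcb6 missed the threshold at 0.39 ± 0.08 (limma adjusted p of 0.0605), with its groups apart and 0.40 on its other probe. Abcc10 was at −0.14 and Abcc9 at 0.30, and neither passed. The probes of Abcc9 ran from −0.32 to 0.63. Abcb6, Abcc8, Abcc9, Abcc10 and Cftr were chosen after their values were seen.

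Genes that act beside these pumps were counted in the same fit, where 1.44% of named genes were called higher and 0.696% lower. Of 26 transporters of the solute carrier (SLC) families that carry drugs and organic ions, 2 rose and 0 fell, with a median log2 fold change of 0.25. The pair that rose were Slc17a3, by 1.27 ± 0.14 (SE), and Slc17a1, by 0.96 ± 0.07, both apical anion carriers of the proximal tubule. Slc17a1 passed in all 6 fits that left out 1 array, and Slc17a3 passed only in that without corn oil replicate 1. The basolateral anion importers Slc22a6 and Slc22a8, which load the cell with substrates of the apical pumps, were at 0.07 ± 0.08 and 0.30 ± 0.13 and did not pass. Among the enzymes that make conjugates, 16 of 36 rose and 0 fell, with a median of 0.86. By the brightest probe, the 4 largest rises among the genes called were those of Gstm1, Ugt2b15, Ugt2b35 and Ugt2b37, between 3.00 and 6.43. Dimmer probes reached 4.17 for Ugt2b15 and 3.96 for Ugt2b37, and also 4.46 for Gstp1 and 4.07 for Gsta3. Ugt2b7 missed the threshold at 5.40 ± 1.06 (limma adjusted p of 0.0628). The calls of Gstm1, Ugt2b15, Ugt2b35 and Ugt2b37 were lost without corn oil replicate 2 or without any 1 of the chlorothalonil arrays. Many of those enzymes have close relatives, which can share signal on a probe. Of 24 regulators, 3 rose and 0 fell, with a median of 0.089. They were Bach1, a repressor at antioxidant response elements, at 0.65 ± 0.08, Keap1, the inhibitor of NRF2, at 0.41 ± 0.06, and the NRF2 relative Nfe2l1 at 0.36 ± 0.06. None of these 3 passed in any fit that left out 1 array, where the limma adjusted p ran from 0.0540 to 0.0765 for Bach1, from 0.0835 to 0.123 for Keap1 and from 0.110 to 0.154 for Nfe2l1. With the mean of a gene's probes it was 0.0950 for Bach1. Nfe2l2, which encodes NRF2, was at −0.23 ± 0.08, and the xenobiotic receptors Nr1i2, Nr1i3 and Ahr at 0.25, 0.40 and 0.08, and none of these passed. The groups did not overlap for Nfe2l2, Nr1i2 and Nr1i3 (unadjusted limma p of 0.033, 0.015 and 0.022), and overlapped for Ahr (0.63). Of the 24 regulators, 12 had an unadjusted limma p under 0.05, against 18.5% of named genes. Of 10 proteins that anchor transporters at the membrane, limma called 0, with an unadjusted p under 0.05 for 2, against 18.5% of named genes. Among them, Pdzk1, a scaffold of apical transporters, was at 0.18 ± 0.08, the actin linker Rdx at 0.04 ± 0.06 and Pdzk1ip1, with the smallest p, at −0.57 ± 0.13. In these 4 lists, 21 calls fell to between 7 and 14 when 1 array was left out, with 7, 8 and 8 without chlorothalonil replicates 1, 2 and 3 and 14, 9 and 12 without corn oil replicates 1, 2 and 3. Slc22a6, Slc22a8, Nfe2l2, Nr1i2, Nr1i3, Ahr, Pdzk1, Rdx and Ugt2b7 were chosen after their values were seen.

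**Figure D4:**
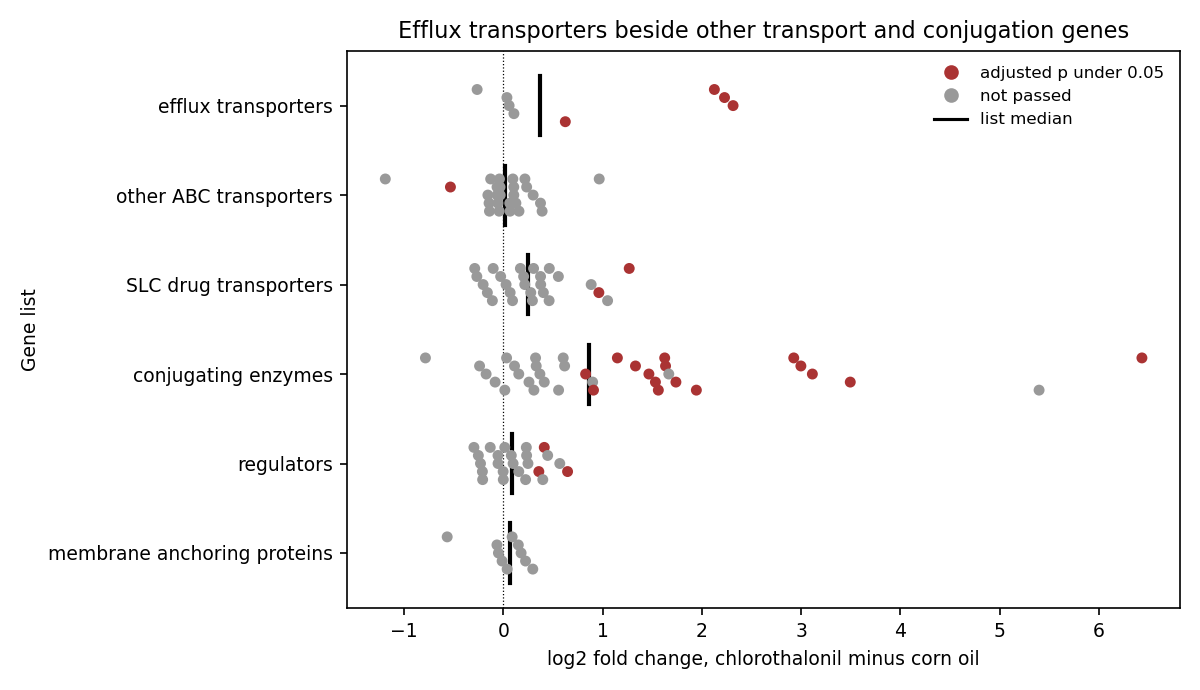
Log2 fold change of chlorothalonil minus corn oil (horizontal axis) of each tested gene in 6 lists, with red for an adjusted p under 0.05 in limma and a black line at the list's median. The efflux transporters split into 3 genes above 2, Abcc1 at 0.62 and 4 genes from −0.26 (Abcg2) to 0.11 (Abcc5). The other ABC transporters centre on 0.016.

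**Figure D5:**
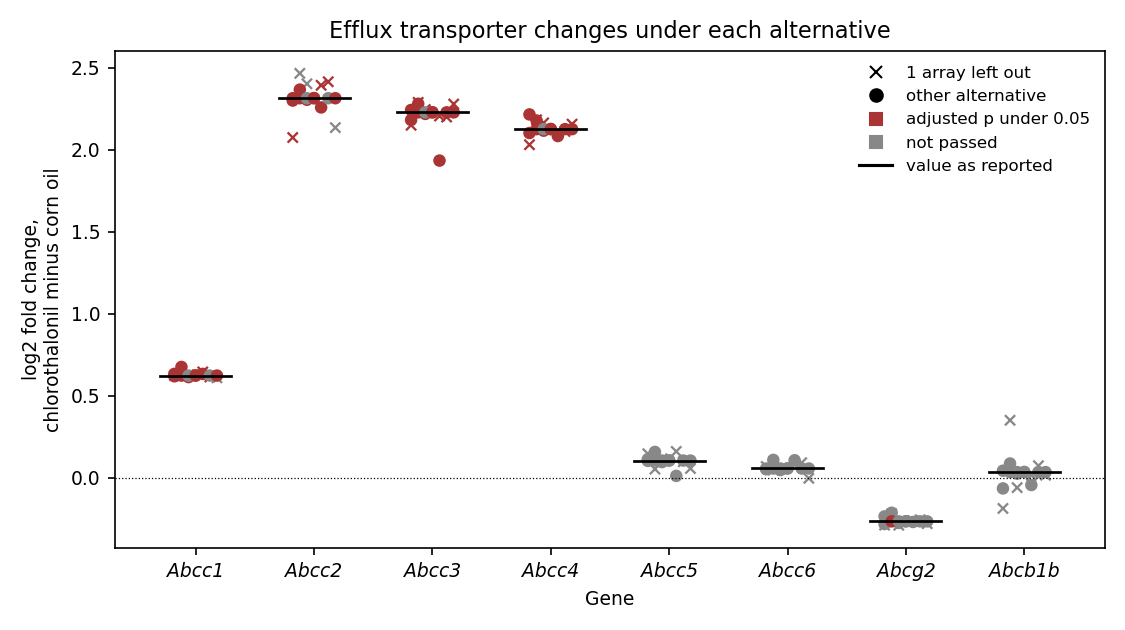
Log2 fold change of 8 efflux transporter genes (vertical axis) as reported (black lines), with 1 array left out (crosses) and under the other alternatives (dots), in red where the adjusted p was under 0.05. The values of Abcc1 stay between 0.61 and 0.68, those of Abcc2, Abcc3 and Abcc4 between 1.93 and 2.47, and those of Abcb1b lie on both sides of 0.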

How the data were processed

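The deposited scanner files give the intensity of each spot, called the processed signal. It is linear and was produced by Agilent Feature Extraction, version 10.7 in the submitters' processing notes, with background subtracted inside each array per the file headers. The values deposited for the whole series are a ratio, in which comparison with the scanner files showed 1 divisor per array, on a linear scale without centring. Column medians were 0.107, 0.109 and 0.112 (corn oil 1 to 3) and 0.105, 0.105 and 0.106 (chlorothalonil 1 to 3). The sources used here do not state how the divisor was chosen. The divisors ran from 842 (chlorothalonil 3) to 960 (corn oil 2), close to the 75th percentiles of the same arrays, 840 and 958. The deposited table is therefore nearly the scaling used here and is no independent alternative.

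Processed signals were taken to log2, the 75th percentile of the non-control probes was subtracted per array, and outlier spots were left out. A probe was kept (with at least 2 usable arrays in each group) where all 3 arrays of either group were well above background (39862 of 61537). They were named through RefSeq accessions (GRCr8), and 28206 probes matched 1 gene. The brightest kept probe stood for a gene, and unnamed probes stayed single. This gave 31098 features, of which 11926 were named genes. The comparison used limma 3.58.1 (R 4.3.3), through lmFit and eBayes with no covariate, and p-values were adjusted over the whole table. The number of arrays limits the precision.

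Members, lists and motifs were chosen with earlier results of these data known. Named genes are all members, the 3 genes nearest each called member, and per list up to 4 called genes by size, or the one with the smallest p. Alternatives covered scaling, background correction, filters, probe choice, variance prior, replicate numbers and each array left out.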

Additional observations from a re-analysis of the deposited data

How the results depend on the processing

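With no filter on dim probes, 159 features were called (980 as reported), 2 transporters (4), 7 of their probes (11), 0 other ABC transporters (1) and 8 genes of the transport and conjugation lists (21), among 48975 features. The 1 other ABC call was also 0 with quantile normalization, median scaling, the deposited table, normexp and the mean of probes. Leaving out 1 array gave 120 to 396 features, 2 to 4 transporters, 7 to 11 of their probes, 0 other ABC transporters and 7 to 14 listed genes (7 to 12 where the count moved).

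The groups share replicate numbers. Deviations of same-numbered arrays from their group means correlated at 0.094, 0.021 and 0.049, and those of differently numbered arrays at −0.079 to 0.043. Correlations this small cannot settle whether same-numbered arrays share more than a number. With the replicate block, which left fewer degrees of freedom, limma called 0 features (5570 with an unadjusted p under 0.05), 0 transporters (5 with such a p), 4 of their probes, 0 other ABC transporters and 0 listed genes. The block left fold changes as they were, and the adjusted p was 0.0757 for Abcc3 and Abcc4.

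Alternatives were computed for the transporters and for the genes that the rule took from the lists, and among these the genes that changed sign had not passed as reported. Abcb1b was at −0.043 with normexp, −0.064 with the mean of probes, and −0.19 and −0.059 without chlorothalonil replicates 1 and 3 (0.35 without replicate 2), and Abcc6 was at −0.0024 without corn oil replicate 3 (0.093 without corn oil replicate 2). Of the values of single genes under alternatives, 363 kept their direction and side of the threshold, 83 lost the call, 8 gained it and 5 changed sign. Merging unnamed probes of 1 identifier, chosen after seeing the data, gave 909 of 29115 features and the same 4 transporters. The correction by normexp used the median spot signal with an offset of 50. Signal over background limits Abcb1a and the dimmest probe of Abcc1.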
